A study of Mus musculus with 6 samples.

Results

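In sensory neurons after nerve injury, 6 genes of ion transport were followed, chosen by name from the 17022 gene names of the expression table. They were the sodium pump beta subunits Atp1b1, Atp1b2 and Atp1b3 and the chloride cotransporters Slc12a2, Slc12a5 and Slc12a7, and they accounted for 28 of the table's 60744 isoforms. RNA had been sequenced from neurons laser-microdissected out of mouse lumbar dorsal root ganglia (levels L3, L4 and L5), the ganglia that house the cell bodies of limb sensory neurons. The crush group had its sciatic nerve crushed for 10 seconds, and the sham group had the same nerve exposed for 10 seconds. All mice were C57Bl/6 males, called adult and given as 4-6 weeks old, with no transgene or other allele named, and ganglia of the operated side were taken 7 days after surgery. There were 3 libraries in each group, called crush 1 to 3 and sham 1 to 3. The sources used here do not say whether each library stands for its own mice. The p-values computed here set group differences only against the spread between these libraries, which may be technical.

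The sodium pump exchanges intracellular sodium for extracellular potassium at the cost of ATP and so restores the gradients that action potentials run down. Its catalytic alpha subunit needs a beta subunit to fold, leave the endoplasmic reticulum and reach the membrane. The cotransporters encoded by Slc12a genes use these gradients to move chloride. NKCC1 (Slc12a2) brings chloride into the cell, and KCC2 (Slc12a5) and KCC4 (Slc12a7) carry it out with potassium. Mature sensory neurons of the ganglia are known for high internal chloride, held up by NKCC1, so that GABA depolarises them, whereas KCC2 is a transporter of central neurons.

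Expression was measured as FPKM, the fragments of a transcript scaled by the authors for its length and for the mapped fragments of the library. Reads behind an FPKM value cannot be recovered from it, so sequencing depth was unknown, and the totals over all genes, 316263 to 364606 FPKM, are not depths. The capture was checked against cell type markers. All 9 sensory neuron markers were tested, with summed levels of 5647 to 6471 FPKM in crush and 5127 to 7000 FPKM in sham libraries, led by the neuronal tubulin Tubb3. Glial markers, of satellite and Schwann cells, also summed to 3170 to 3472 FPKM in crush and 3076 to 4244 FPKM in sham libraries, led by Apoe, so RNA of other cells was present beside that of neurons. In such a mixture, fewer cells of a type and less RNA per cell cannot be told apart. The library sham 2 stood apart. Across the 12289 genes tested it correlated with sham 1 at r = 0.978 and with sham 3 at r = 0.981, while sham 1 and sham 3 correlated at 0.996. These correlations run across genes, which are not independent replicates.

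Promoter windows from RefSeq (build GRCm38.p6, 250 bases before to 50 after a transcription start) were at hand for 4 of the 6 genes, in 7 windows. Of these, 3 are shown, 5′ to 3′ on the strand of the gene, because they belong to the most abundant of the 6 genes, Atp1b1, and to the one nearest 0, Slc12a5, which has both of its windows here. Capitals mark the motifs searched on both strands, namely the GC box (GGGCGG), the AP-1 site (TGANTCA), the cAMP response element (TGACGTCA) and the TATA box (TATAAA). No match in the windows shown overlaps another.
Atp1b1, chr1:164458306-164458605, minus strand: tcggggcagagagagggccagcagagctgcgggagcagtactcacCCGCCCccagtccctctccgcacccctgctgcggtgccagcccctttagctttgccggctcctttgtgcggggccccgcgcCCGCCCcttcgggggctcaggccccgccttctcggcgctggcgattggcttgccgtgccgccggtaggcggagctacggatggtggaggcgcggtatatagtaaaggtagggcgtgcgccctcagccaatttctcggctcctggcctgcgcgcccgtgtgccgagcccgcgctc
Slc12a5, chr2:164960596-164960895, plus strand: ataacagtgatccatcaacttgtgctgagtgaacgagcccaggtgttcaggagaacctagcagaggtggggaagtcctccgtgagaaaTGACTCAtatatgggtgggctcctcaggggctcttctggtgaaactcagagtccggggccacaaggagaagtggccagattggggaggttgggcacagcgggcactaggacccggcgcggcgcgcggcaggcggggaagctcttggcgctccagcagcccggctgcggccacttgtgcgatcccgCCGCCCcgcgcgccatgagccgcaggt
Slc12a5, chr2:164967738-164968037, plus strand: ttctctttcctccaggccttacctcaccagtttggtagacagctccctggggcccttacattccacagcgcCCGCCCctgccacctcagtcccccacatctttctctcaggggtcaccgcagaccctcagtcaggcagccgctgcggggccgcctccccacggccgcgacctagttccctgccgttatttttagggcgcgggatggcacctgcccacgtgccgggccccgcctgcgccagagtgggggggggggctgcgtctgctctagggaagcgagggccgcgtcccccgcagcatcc
The Atp1b1 window held 2 GC boxes, and each Slc12a5 window held 1. A GC box occurred in 35.7% of the 32851 windows of this length. The upstream Slc12a5 window also held 1 AP-1 site, a motif found in 7.81% of windows. Neither the cAMP response element (in 1.79% of all windows) nor the TATA box (in 13.6%) occurred in the 7 windows. Such matches are letters, not shown sites of binding. The Atp1b1 window was 71.0% G and C and the Slc12a5 windows 63.7% and 68.3%, against a median of 52.7% over all windows. The coordinates above are on a later build than the one used for expression, and no position is carried over between them.

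The first comparison asked whether nerve crush was accompanied by a different level of any of these genes. Of the 6 genes, 5 had a mean of at least 1 FPKM and could be tested, and none differed between crush and sham libraries beyond the spread between libraries. In limma, on log2(FPKM + 1) with Benjamini-Hochberg adjustment over all 12289 genes, 0 of the 5 passed an adjusted p of 0.05, and 0 had an unadjusted p under 0.05. Over all genes 3.78% passed and 17.6% had an unadjusted p under 0.05. The median log2 change of the 5 was -0.12 and that of all genes tested -0.02. In all 5 genes the crush and sham values overlapped, whereas 26.3% of all genes tested had groups that did not overlap, 14.1% with the crush group lower.

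Atp1b1, whose product is the widespread beta1 subunit, was the most abundant of the 6 and ranked 31st of all genes by mean FPKM. On build mm9, which the authors used, its isoforms spanned chromosome 1 from 166367269 to 166390352 on the minus strand. It had 667, 598 and 639 FPKM in crush 1 to 3, against 720.0, 642 and 736 FPKM in sham 1 to 3. Each crush library lay below sham 1 and sham 3, but crush 1 lay above sham 2, so the groups overlapped. The means were 634 ± 34.6 FPKM after crush and 699 ± 50.2 FPKM after sham surgery (± SD, n = 3 libraries a group, here and below). The log2 change was -0.14 (95% interval -0.37 to 0.09, limma adjusted p = 0.535), which allows a level between 0.773 and 1.07 times that of sham on the FPKM + 1 scale.

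Atp1b3, the beta3 subunit gene, was the next most abundant, on chromosome 9 from 96233147 to 96265734 (minus strand). Its level was 206, 214 and 238 FPKM in crush 1 to 3, against 217, 298 and 220.2 FPKM in sham 1 to 3. Sham 2 alone was high, and the other 5 libraries lay within 206 to 238 FPKM. The means were 219 ± 16.7 FPKM in crush and 245 ± 45.9 FPKM in sham libraries, with a log2 change of -0.15 (95% interval -0.48 to 0.18, limma adjusted p = 0.657). Without sham 2 the log2 change was -0.000683.

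Atp1b2 encodes the beta2 subunit, known also as the adhesion molecule on glia, and lies on chromosome 11 from 69413229 to 69419490 (minus strand). It measured 35.1, 32.6 and 33.0 FPKM in crush 1 to 3, against 32.1, 22.7 and 36.0 FPKM in sham 1 to 3. Here sham 2 was the lowest library, and the other 5 lay between 32.1 and 36.0 FPKM. The means were 33.5 ± 1.35 FPKM in crush and 30.3 ± 6.83 FPKM in sham libraries, and the log2 change was 0.17 (95% interval -0.21 to 0.55, limma adjusted p = 0.662). Its sign turned when sham 2 was left out (-0.02, adjusted p = 0.885). The glial markers summed highest in sham 2, at 4244 FPKM, where Atp1b2 was lowest; their part in this was not tested.

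The mix of beta subunits was set side by side within libraries, a measure that library scaling does not touch. Atp1b1 made up 73.5%, 70.8% and 70.2% of the beta-subunit FPKM in crush 1 to 3, against 74.3%, 66.7% and 74.2% in sham 1 to 3. The difference of the means, 71.5% ± 1.72 in crush and 71.7% ± 4.36 in sham libraries, was -0.195 percentage points (exact permutation test, 2-sided, p = 1.0, where 3 against 3 libraries allow no p below 0.1). Atp1b3 took 22.7% to 26.1% in crush and 22.2% to 31.0% in sham libraries. Atp1b2 took the small remainder, 3.63% to 3.87% in crush and 2.36% to 3.62% in sham libraries. These ranges all but met, crush 3 lying just above sham 3, and the share was not tested.

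Added together, the 3 beta subunits came to 907, 844 and 909.8 FPKM in crush 1 to 3, against 969.5, 963 and 992 FPKM in sham 1 to 3. Every crush library lay below every sham library in this sum, which was formed after the values were seen and was not tested. As a share of the total FPKM of each library the sum was 0.282%, 0.267% and 0.269% in crush and 0.302%, 0.264% and 0.309% in sham libraries. On that scale the groups overlapped, since sham 2, which had the largest total FPKM, had the smallest share.

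**Figure D1:**
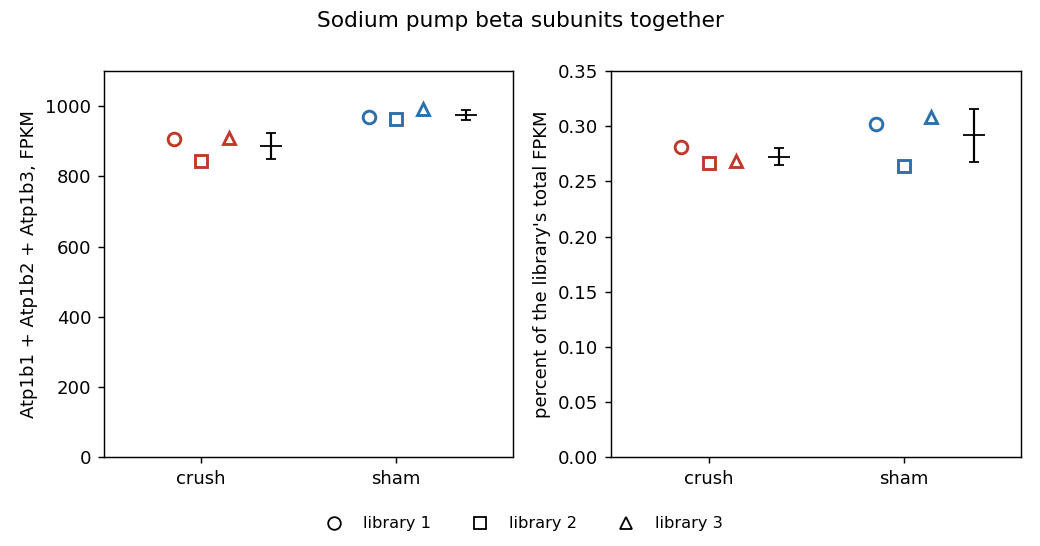
Summed FPKM of Atp1b1, Atp1b2 and Atp1b3 (left) and the same sum as a percent of the library's total FPKM (right) in crush and sham libraries, with the mean and SD of each group as a black bar. The summed FPKM is 844 to 909.8 in crush and 963 to 992 in sham libraries, while the percentages overlap because sham 2 lies at 0.264%.

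Slc12a2, the gene of the chloride importer NKCC1, was the main cotransporter of the 3, on chromosome 18 from 58037786 to 58107269 (plus strand). It had 34.9, 31.0 and 29.7 FPKM in crush 1 to 3, against 35.7, 26.1 and 37.1 FPKM in sham 1 to 3. The crush values lay inside the sham range, of which sham 2 was the low end. The means were 31.9 ± 2.74 FPKM in crush and 33.0 ± 5.99 FPKM in sham libraries, with a log2 change of -0.04 (95% interval -0.37 to 0.30, limma adjusted p = 0.927). The interval allows a level between 0.772 and 1.23 times that of sham. Of its exon bases 5.94% are shared with an unnamed locus on the same strand; its counting in the authors' files could be split there. Leaving out sham 2 moved the change to -0.19 (adjusted p = 0.175), and leaving out sham 1, sham 3 or crush 3 made it positive (0.03, 0.05 and 0.01).

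Slc12a7, which encodes the potassium-chloride exporter KCC4, was the least abundant gene that could be tested, on chromosome 13 from 73870564 to 73954192 (plus strand). It had 5.55, 5.21 and 5.01 FPKM in crush 1 to 3, against 5.74, 5.29 and 6.46 FPKM in sham 1 to 3. The groups overlapped because crush 1 exceeded sham 2. The means were 5.26 ± 0.272 FPKM in crush and 5.83 ± 0.590 FPKM in sham libraries (log2 change -0.12, 95% interval -0.33 to 0.08, limma adjusted p = 0.530). The ratio of Slc12a2 to Slc12a7 FPKM was 6.30, 5.94 and 5.92 in crush 1 to 3, against 6.23, 4.94 and 5.75 in sham 1 to 3.

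Slc12a5, the KCC2 gene, was close to 0 in every library. Its values were 0, 3.15e-06 and 0 FPKM in crush 1 to 3, against 0.184, 0.123 and 0.0363 FPKM in sham 1 to 3. The crush values all lay below the sham values, but the gene was under the 1 FPKM minimum and was not tested there. With no filter on low values its limma adjusted p was 0.299. These values rest on 1 assembled isoform of 9 exons and 1332 bases (chromosome 2, 164814505 to 164822744, plus strand), and 3 other Slc12a5 transcripts of the authors' exon file had no value in the table. The number of reads behind these values is unknown. The ratio of NKCC1 to KCC2 could not be computed where KCC2 was listed at 0.

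Ordered by FPKM, which is a level per transcript length, the genes ran from Atp1b1 through Atp1b3, a pair formed by Slc12a2 and Atp1b2, then Slc12a7, to Slc12a5. In no library did Atp1b1 fall to the level of Atp1b3, nor Slc12a7 reach that of the pair above it. Slc12a2 and Atp1b2 were neighbours with overlapping ranges, 26.1 to 37.1 FPKM for Slc12a2 and 22.7 to 36.0 FPKM for Atp1b2 over the 6 libraries. Within libraries, Atp1b2 lay above Slc12a2 in every crush library, by little in crush 1 (35.1 against 34.9 FPKM). Atp1b2 lay below Slc12a2 in every sham library. The difference between these genes was not tested.

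**Figure D2:**
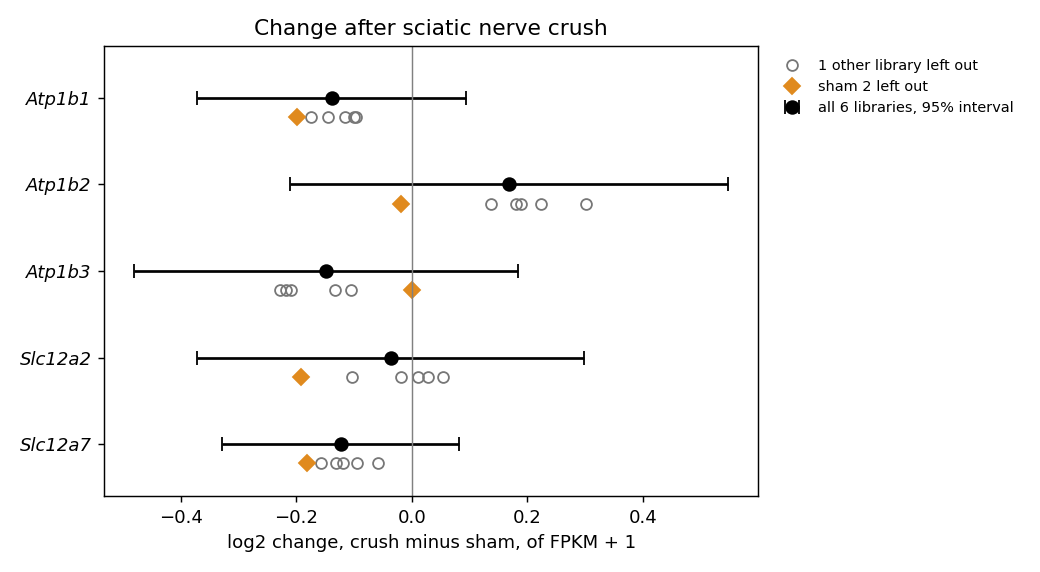
Log2 change (crush minus sham) of FPKM + 1 for the 5 genes tested, with the 95% interval of the limma fit on all 6 libraries (black) and, below each, the change with 1 library left out (open circles; diamond for sham 2). All 5 intervals include 0, and the diamond lies on the other side of 0 from the black point for Atp1b2 (-0.02 against 0.17).

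The second comparison asked whether any isoform of these genes differed. Of the 28 isoforms, 18 reached a mean of 1 FPKM, and 0 of the 18 passed limma with adjustment over all 24485 isoforms tested, of which 0.0613% passed. At an unadjusted p under 0.05 there were 2, against 9.12% of all isoforms tested. They were also the only pair among the 18 whose groups did not overlap, against 17% of all isoforms tested, and 9.01% with the crush group lower, as in both. One was the Atp1b1 isoform with a reference identifier, of 6 exons and 4376 bases. It had 49.2, 46.7 and 53.1 FPKM in crush 1 to 3, against 60.0, 57.5 and 58.0 FPKM in sham 1 to 3 (log2 change -0.23, limma adjusted p = 0.456). The other was the assembled isoform Atp1b3_j6, of 7 exons, at 11.9, 10.9 and 11.8 FPKM in crush 1 to 3, against 12.6, 18.2 and 15.1 FPKM in sham 1 to 3 (-0.36, adjusted p = 0.513). When the libraries were weighted by their estimated quality, the Atp1b1 reference isoform (-0.25, adjusted p = 0.0463) and the main Atp1b1 isoform, Atp1b1_j3 (-0.26, adjusted p = 0.0428), passed. In that isoform fit 1355 isoforms passed in all. Its own library weights were not kept. Estimated from gene levels, the weight of sham 2 was 0.162 and that of crush 1 was 2.86.

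Whether the isoforms of a gene changed by unequal amounts was tested with the F test of limma's diffSplice. None of the 5 genes passed (adjusted p = 1.0 for each, and 0 with an unadjusted p under 0.05), against 0.519% of the 6746 genes in that test. On simulated data this test called more unchanged genes than its threshold allows, so its share over all genes may be too high. The smallest unadjusted p was 0.156, for Atp1b3.

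Most of the FPKM of Atp1b1 lay on an assembled isoform. Atp1b1_j3, of 6 exons and 2059 bases, held 76.6% to 83.3% of the gene's FPKM in crush and 78.3% to 83.5% in sham libraries. It started 3694 bases downstream of the reference isoform, which held 7.38% to 8.31% in crush and 7.88% to 8.95% in sham libraries. Atp1b1_j2, of 3 exons, was given 45.5 FPKM in crush 1 and listed at 0 in the other 5 libraries.

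In Atp1b3 and Slc12a2 the leading isoform covered only the 3' part of the gene. Atp1b3_j1, with 3 of the 7 exons and 1049 bases, held 77.8% to 79.1% of the FPKM in crush and 77.5% to 82.7% in sham libraries. Its values were 160, 167 and 188 FPKM in crush 1 to 3, against 168, 247 and 174 FPKM in sham 1 to 3, so the high Atp1b3 level of sham 2 lay mostly on this isoform. Slc12a2_j4, with 7 of 27 exons, held 61.6% to 71.0% in crush and 51.8% to 76.9% in sham libraries. Atp1b2 and Slc12a7 had such short isoforms too, Atp1b2_j1 with 3 of 7 exons (35.2% of the FPKM over the 6 libraries) and Slc12a7_j2 with 2 of 24 exons (30.0%).

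A short isoform raises a sum of FPKM more than its fragments alone would. Weighted by isoform length, an alternative chosen after seeing the data, the levels came to 51.0% of the plain sum for Atp1b1, 48.3% for Atp1b3, 63.3% for Slc12a2, 88.1% for Atp1b2 and 89.3% for Slc12a7. On that scale Atp1b1 averaged 321 ± 14.8 in crush and 358 ± 24.2 in sham libraries. Slc12a2 averaged 20.1 ± 1.57 in crush and 20.9 ± 4.31 in sham libraries, and Atp1b2 29.5 ± 0.577 and 26.7 ± 5.52. Length-weighted, Atp1b2 thus lay above Slc12a2 in every library, whereas in plain FPKM it did so in crush libraries only. None of the 5 genes passed limma on these levels either.

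**Figure D3:**
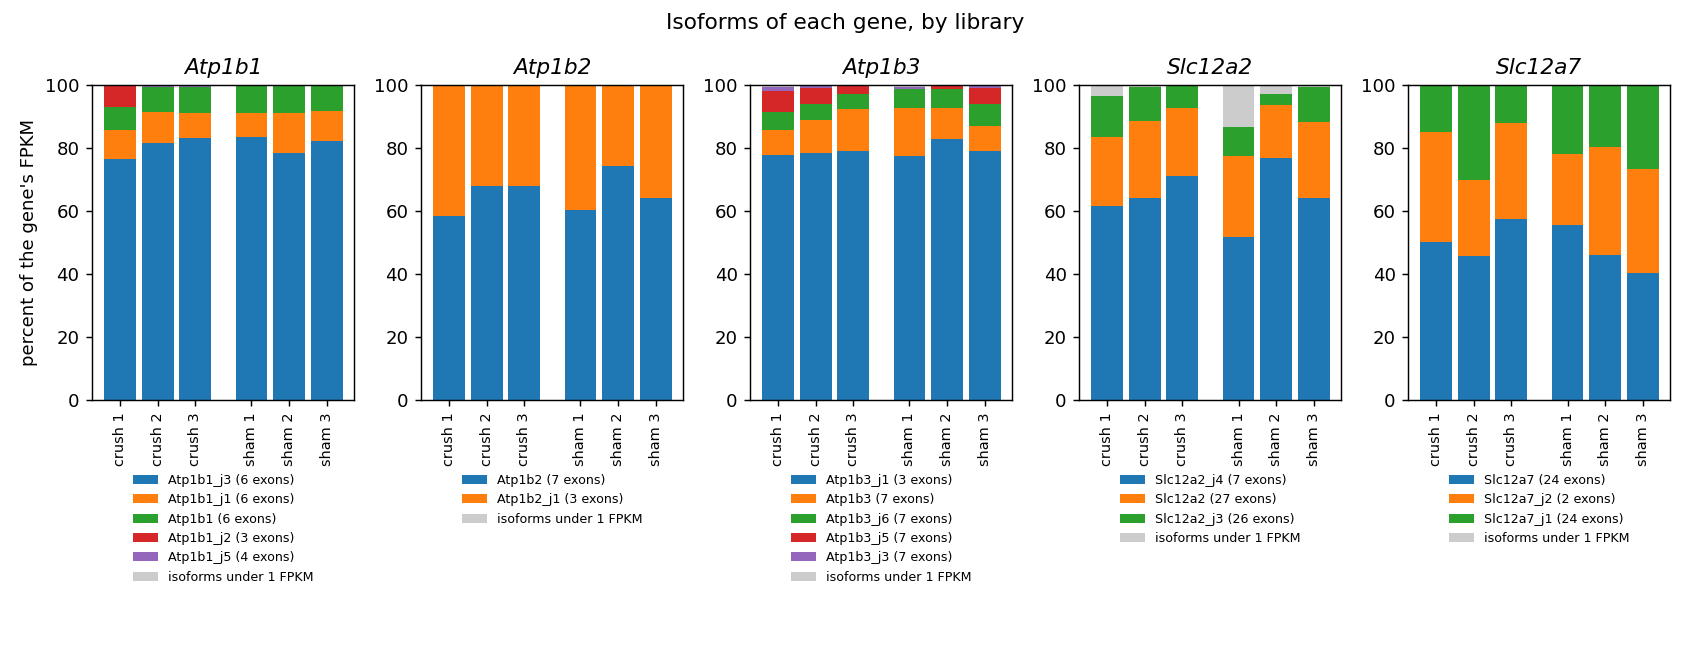
Percent of each gene's FPKM held by its isoforms in the 3 crush and 3 sham libraries; colours mark those averaging 1 FPKM or more, with their exon numbers in the legend, and grey is the rest. Atp1b1_j3 and Atp1b3_j1 hold at least 76.6% of their gene in every library, while the grey part of Slc12a2 in sham 1 is mostly Slc12a2_j5, at 13.4% of the gene.

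The authors' deposited table holds their own comparison of the groups, made per isoform on pooled estimates. For the 19 isoforms of Atp1b1, Atp1b3 and Slc12a7 the test status there is FAIL, for the Slc12a5 isoform NOTEST, and for the 8 isoforms of Atp1b2 and Slc12a2 OK. Neither Atp1b2 isoform passed in the authors' deposited table (q = 0.986 and 0.994). A q-value under 0.05 stands beside 3 Slc12a2 isoforms in the authors' deposited table. One is the reference isoform of 27 exons, with a log2 fold change of -0.33 (crush over sham) and q = 0.0321 in the authors' deposited table. Its values in the libraries were 7.66, 7.55 and 6.46 FPKM in crush 1 to 3, against 9.12, 4.33 and 8.97 FPKM in sham 1 to 3. Sham 2 lay below all crush libraries and the other sham libraries above them.

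The remaining 2 rest on 1 or 2 libraries. Slc12a2_j5 has q = 3.09e-16 in the authors' deposited table, and was at 0.00112, 0.00105 and 0 FPKM in crush 1 to 3, against 4.80, 0.681 and 0.00111 FPKM in sham 1 to 3. Sham 3 thus had the same level as the crush libraries. Slc12a2_j6 has q = 0.0104 in the authors' deposited table, and was at 1.11 FPKM in crush 1 and listed at 0 in the other 5 libraries. Both had a mean under 1 FPKM over the 6 libraries and were not tested in limma. Like Slc12a2_j4 they have 7 exons, and their starts lie 57077 and 57091 bases downstream of the reference start, that of Slc12a2_j4 56834 bases downstream.

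**Figure D4:**
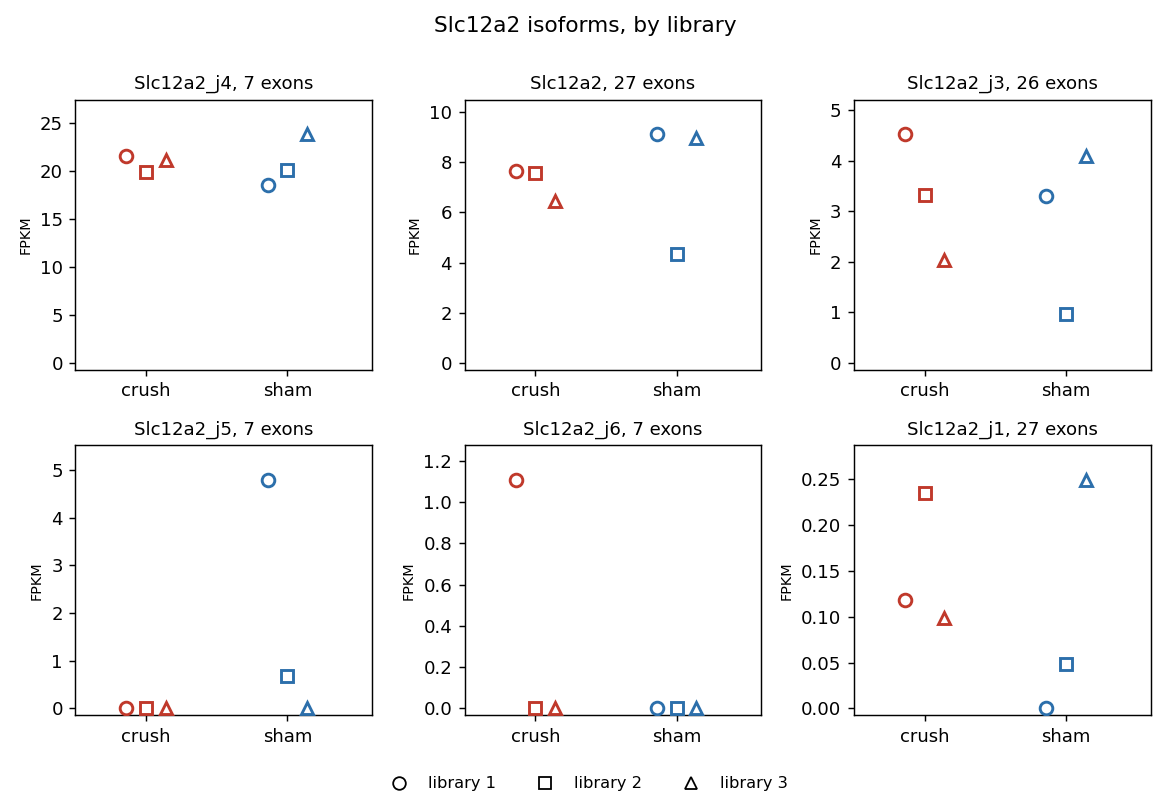
FPKM of the 6 Slc12a2 isoforms with values in the crush and sham libraries (points; symbols give the library number), each on its own scale starting near 0. Slc12a2_j5 is high in sham 1 (4.80 FPKM) and next in sham 2 (0.681 FPKM), and Slc12a2_j6 is above 0 in crush 1 alone (1.11 FPKM), while Slc12a2_j4 overlaps between groups.

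For Atp1b1 the pooled estimates and the single libraries differed in how they divided the gene. In the authors' deposited table Atp1b1_j6 has 345 FPKM in the pooled crush and 286 FPKM in the pooled sham estimate. In single libraries it had 0, 2.10 and 2.96 FPKM in crush 1 to 3, against 0.213, 0 and 0 FPKM in sham 1 to 3. Atp1b1_j3 has 166 FPKM in the pooled crush and 323 FPKM in the pooled sham estimate of the authors' deposited table, where single libraries gave it 488 to 532 FPKM in crush and 503 to 605 FPKM in sham. Both isoforms have 6 exons, and they start 3503 (Atp1b1_j6) and 3694 (Atp1b1_j3) bases downstream of the reference start. The pooled crush estimates carry the status FAIL, so no fold change is read from them.

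Genes that work with the pump and the cotransporters were counted from lists, to be read against the 17.6% of all genes with an unadjusted p under 0.05. Of 12 tested partners of the pump (alpha subunits, FXYD regulators and NKAIN interacting proteins), 0 passed in limma, with 2 at an unadjusted p under 0.05 and a median log2 change of 0.05. The partner of smallest adjusted p was Fxyd5, a FXYD regulator also called dysadherin, at 11.3 ± 1.22 FPKM in crush and 8.64 ± 0.470 FPKM in sham libraries (log2 change 0.35, adjusted p = 0.0932). Of 4 other cation-chloride cotransporters tested, 0 passed, with 1 at an unadjusted p under 0.05 (median 0.05). It was Slc12a3, the thiazide-sensitive sodium-chloride cotransporter, at 2.18 ± 0.300 FPKM in crush and 1.59 ± 0.194 FPKM in sham libraries (0.30, adjusted p = 0.201). The WNK pathway activates NKCC1 and inhibits KCC proteins by phosphorylation. Of 8 of its kinases and scaffolds listed, 6 were tested and 0 passed, with 1 at an unadjusted p under 0.05 (median -0.02). That 1 was the kinase Wnk2, at 8.04 ± 0.653 FPKM in crush and 10.4 ± 0.928 FPKM in sham libraries (-0.33, adjusted p = 0.111). Wnk3 and Wnk4 averaged under 1 FPKM and were not tested. Wnk4 had 1.29, 0.585 and 0.418 FPKM in crush 1 to 3, against 0.0691, 0.0181 and 0.0236 FPKM in sham 1 to 3. Wnk3 averaged 0.358 FPKM in crush and 0.292 FPKM in sham libraries. Without sham 2, 1 pump partner rose and 1 fell, and 1 WNK pathway gene fell, in a fit where 4.94% of all genes rose and 4.61% fell.

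Among 19 chloride channels and bicarbonate transporters, 1 rose, 0 fell and 18 did not pass (median 0.03), where 2.38% of all genes rose and 1.39% fell. Without sham 2, 2 rose and 1 fell (over all genes, 4.94% and 4.61%). The riser was Slc4a8, which exchanges sodium and bicarbonate for chloride. It had 4.93, 4.35 and 4.81 FPKM in crush 1 to 3, against 2.96, 1.88 and 2.53 FPKM in sham 1 to 3 (log2 change 0.73, SE 0.13, limma adjusted p = 0.0310). The groups did not overlap. From reference isoforms alone the change was 0.25 (adjusted p = 0.656), and the adjusted p was 0.132, 0.0971, 0.129 and 0.109 without crush 1, crush 2, crush 3 and sham 3. Among 11 calcium pumps and exchangers, 1 fell, 0 rose and 10 did not pass (median -0.00209). Atp2b2, a plasma membrane calcium pump, had 17.0, 16.9 and 17.1 FPKM in crush 1 to 3, against 23.6, 21.8 and 24.5 FPKM in sham 1 to 3 (-0.43, SE 0.07, adjusted p = 0.0220). Its call was lost without any 1 library other than sham 2 (adjusted p from 0.0823 to 0.114) and with length-weighted sums (-0.40, adjusted p = 0.0751), and was kept without sham 2 (0.00402). Atp2b2 was not among the genes tested from reference isoforms alone, or from isoforms with status OK in all 6 libraries. With 1 library left out its log2 change stayed between -0.48 and -0.40.

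Some cell type markers differed between the groups. Over all genes 2.38% rose and 1.39% fell with all 6 libraries, 4.94% rose and 4.61% fell without sham 2, and 0.35% to 0.797% rose and 0.0814% to 0.187% fell without any other 1 library. Macrophage markers rose for 7 of 8 tested, for 8 without sham 2 and for 4 without any other 1 library, and the list summed to 138 to 154 FPKM in crush and 64.2 to 76.8 FPKM in sham libraries. Markers of large myelinated neurons fell for 5 of 7 tested, for 6 without sham 2, for 3 without crush 3 and for 0 without any other 1 library. That list summed to 1230 to 1523 FPKM in crush and 2037 to 2148 FPKM in sham libraries. For satellite glia and Schwann cells 0 of 12 markers passed, with 3 at an unadjusted p under 0.05, and for fibroblasts and vessels 0 of 9, with 5, where 17.6% of all genes had one. The fibroblast and vessel list summed to 187 to 199 FPKM in crush and 125 to 163 FPKM in sham libraries. Its vessel markers Pecam1, Cdh5 and Kdr had log2 changes of only 0.00383, 0.0502 and -0.0685. Without sham 2, 2 glial markers and 2 fibroblast or vessel markers rose and 1 sensory neuron marker fell. The macrophage list and the fibroblast and vessel list each had values for 9 of 10 markers. No marker with values was at 0 in all 6 libraries. The part of these cells in the levels of the 6 genes was not tested.

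Patterns over the 6 libraries were compared with those of 12134 genes that carry a symbol, as a description. The highest Pearson correlations of log2(FPKM + 1) were with Ppm1h (0.996) and Dennd4b (0.993) for Atp1b1, with Scd2 (0.997) and Etv5 (0.996) for Atp1b2, and with Csnk2b and Syn3 (0.999 each) for Atp1b3. For Slc12a2 they were with Celsr2 (0.997) and Mios (0.996), and for Slc12a7 with Slc25a22 (0.987) and Ush1g (0.975). With 6 points, and sham 2 far from the others in Atp1b2, Atp1b3 and Slc12a2, no p is given for these values.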

How the data were processed

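The authors deposited FPKM per isoform and library, each value with its interval and status, and a p-value and q-value per isoform from their own comparison. The submitters' processing notes name build mm9 and, without their roles, Cuffdiff 1.2.1, Cufflinks 1.1.0 and TopHat 1.3.2; positions come from the authors' deposited exon file. Per the labels' protocols, poly-A RNA was barcoded and the libraries were mixed on 3 lanes. Neither batches nor the strand setting are given in the sources used here.

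FPKM was summed over isoforms sharing a gene name. Features averaging 1 FPKM or more over the 6 libraries were tested as log2(FPKM + 1), which understates changes of low genes, with limma 3.58.1 in R 4.3.3 (moderated variance with a trend, 2-sided, Benjamini-Hochberg threshold 0.05), and isoform differences with its diffSplice. Intervals of changes are limma's. The gene and isoform tests with all 6 libraries were tested on simulated data, where diffSplice called more unchanged genes than its threshold allows; the alternatives were not simulated. Plots came from matplotlib 3.10.9 and the remaining work from pandas 2.3.3 with numpy 2.4.6 (Python 3.11.15).

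Members and lists were chosen with earlier results of these data known. Named are the 6 genes, isoforms of at least 1 FPKM, called list members or else the one of smallest adjusted p, the 2 genes most like each member, and the leading neuron and glia markers. The other Slc12a2 isoforms, Atp1b1_j6, the beta-subunit sum, Wnk3, Wnk4 and the vessel markers named were chosen after their values were seen. The planned test of the Slc12a2 to Slc12a5 ratio could not be run, because Slc12a5 was listed at 0 in 2 libraries. The deposited intervals of the 18 isoforms tested had median half-widths of 22.1% to 42.7% of the value. Alternatives were the pseudocount, the filter, upper-quartile and quantile scaling, reference or status-OK isoforms only, sample weights, the replicate block, leaving out each library and, added after seeing the data, length-weighted sums.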

Additional observations from a re-analysis of the deposited data

How the results depend on the processing

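None of the 5 genes tested passed under any of 75 combinations of gene and alternative, the lowest adjusted p being 0.151 (Atp1b1 without sham 2). Signs turned for Slc12a2 from reference isoforms alone (0.0125). With 1 library left out the changes ran from -0.0196 to 0.30 (Atp1b2), from -0.19 to 0.0540 (Slc12a2), from -0.20 to -0.10 (Atp1b1), from -0.23 to -0.000683 (Atp1b3) and from -0.18 to -0.06 (Slc12a7). The Atp1b1 share difference ran from -2.71 to 1.09 percentage points (exact permutation p from 0.2 to 1.0), and was -3.03 from reference isoforms alone (exact permutation p = 0.3).

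The 464 genes called became 67 from reference isoforms alone, 1429 with sample weights, 50 with the replicate block and 53 to 1174 with 1 library left out, the 1174 being without sham 2. The 15 isoforms called became 7 with no filter, 25 and 38 with upper-quartile and quantile scaling, 44 from reference isoforms, 34 from status-OK isoforms, 1355 with weights, 0 with the replicate block and 0 to 45 with 1 library left out. The 35 genes called for isoform differences became 122, 5, 714 and 7 with no filter, reference isoforms, weights and the replicate block, and 11 to 86 with 1 library left out. Each fit with 1 library left out had fewer libraries. Why the counts moved was not tested.

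In the labels, libraries of the same replicate number share only that number. Deviations of same-numbered libraries from their group means correlated at 0.372, -0.309 and -0.486, and crush 3 correlated best with sham 2 (0.590). Deviations within a group of 3 libraries constrain each other, so these values cannot decide whether same-numbered libraries shared a batch. The replicate block, under which Slc4a8 (adjusted p = 0.0683) and Atp2b2 (0.114) were not called, gave no call for the 5 genes tested.

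Among isoforms, signs turned with sample weights for Atp1b1_j5 (-0.16), Atp1b2_j1 (-0.0885), the reference isoforms of Atp1b2 (-0.0557), Slc12a2 (-0.23) and Atp1b3 (0.13), Slc12a2_j3 (-0.13) and Slc12a2_j4 (-0.15), and for Slc12a2_j4 with upper-quartile scaling (-0.00162). With 1 library left out the ranges were 0 to 2.77 (Atp1b1_j2), -0.0135 to 0.74 (Atp1b1_j5), -0.12 to 0.39 (Atp1b2_j1), -0.47 to 0.0385 (Atp1b3 reference isoform), -0.27 to 0.00101 (Atp1b3_j1), -0.29 to 0.17 (Slc12a2 reference isoform), -0.17 to 0.52 (Slc12a2_j3), -0.0701 to 0.10 (Slc12a2_j4), -0.0801 to 0.0647 (Slc12a7 reference isoform) and -0.21 to 0.0141 (Slc12a7_j2). The depth is unknown, so no floor can be given for values near 0 such as those of Slc12a5.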
